A study of Mus musculus with 12 samples.

Results

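Gjb6, Ezr, Pnpla7, Htra1, Mertk, Sdc4 and Lhfp, genes linked to astrocytes, were followed across nicotine infusion and age in mouse hippocampus. They are 7 of the 44760 genes counted in both deposited tables, and they were chosen by their levels in these same libraries, since nicotine libraries tended to be higher than saline libraries at both ages in earlier results. Their nicotine values are therefore given as a description, without a test, while the comparison between ages, which the choice did not use, was tested. The data are RNA-seq counts per gene from 12 hippocampal libraries, and the stated purpose was to examine how nicotine modifies an early and a late stage of Alzheimer's disease.

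All 12 libraries came from male APP/PS1 mice on a C57BL/6 background (N9B6). These animals (APPswe/PS1dE9) carry amyloid precursor protein with the Swedish mutation and presenilin 1 lacking one exon, and they develop amyloid plaques. Each animal had a subcutaneous osmotic pump for 14 days that delivered either nicotine hydrogen tartrate, at a dose the labels give as 48 mg/kg/h, or saline. The 4 groups of 3 libraries were nicotine at 7 months, saline at 7 months, nicotine at 18 months and saline at 18 months. No mice without the transgenes were analysed here, so both ages and both infusions are seen only on the APP/PS1 genotype. The labels do not tie each library to an animal, so p-values measure the spread between these libraries.

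Astrocytes buffer potassium and glutamate around synapses, supply neurons with lactate, and wrap vessels and synapses with fine processes. They share ions and metabolites through gap junctions built from connexins, they engulf synapses and debris through phagocytic receptors, and in plaque-bearing brain many of them become reactive. Gjb6 encodes connexin 30, a gap junction channel protein that in brain is largely made by astrocytes. Ezr encodes ezrin, which links the plasma membrane to actin and is found in thin astrocyte processes. Pnpla7 encodes a lysophospholipase, an enzyme that breaks down lysophospholipids, and Htra1 encodes a secreted serine protease that digests matrix proteins and dampens TGF-beta signalling. Mertk encodes a receptor tyrosine kinase through which astrocytes, microglia and macrophages take up cells marked by phosphatidylserine. Sdc4 encodes syndecan 4, a heparan sulfate proteoglycan of the cell surface, and Lhfp, also called Lhfpl6, encodes a tetraspan membrane protein whose role in brain is little known. Several of them are also made by other cells of the brain, and whole tissue cannot tell fewer cells of a type from less RNA per cell.

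In the GRCm38 annotation (GENCODE M21) Gjb6 lies on chromosome 14 (chr14:57123303-57133611, minus strand), Ezr on chr17:6738041-6782784 (minus strand), Pnpla7 on chr2:24976033-25054057 (plus strand) and Htra1 on chr7:130936111-130985660 (plus strand). Mertk lies on chr2:128698956-128802894 (plus strand), Sdc4 on chr2:164424247-164443887 (minus strand) and Lhfp on chr3:53041528-53261679 (plus strand). The 250 bases before the transcription start were read from RefSeq (GRCm38.p6), which holds a promoter for 7 of the 7 genes. RefSeq starts can differ from the GENCODE spans above. The Sdc4 window (chr2:164443189-164443438) lies wholly inside its GENCODE span, and the Htra1 window (chr7:130935953-130936202) partly so. The Ezr and Lhfp windows also run into their spans. Distances before the start refer to the RefSeq start. Those of 4 genes are printed 5′ to 3′ on the gene's own strand because they hold the motif matches described next or, for Gjb6, none of them: Gjb6 at chr14:57133612-57133861, Ezr at chr17:6782781-6783030, Pnpla7 at chr2:24975783-24976032 and Mertk at chr2:128698665-128698914. Capitals mark matches, on either strand, to the motifs named after the sequences.
Gjb6: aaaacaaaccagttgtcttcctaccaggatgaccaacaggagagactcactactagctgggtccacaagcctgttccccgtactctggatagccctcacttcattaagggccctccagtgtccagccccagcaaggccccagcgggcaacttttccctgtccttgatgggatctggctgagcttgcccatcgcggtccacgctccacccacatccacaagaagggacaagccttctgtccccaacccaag
Ezr: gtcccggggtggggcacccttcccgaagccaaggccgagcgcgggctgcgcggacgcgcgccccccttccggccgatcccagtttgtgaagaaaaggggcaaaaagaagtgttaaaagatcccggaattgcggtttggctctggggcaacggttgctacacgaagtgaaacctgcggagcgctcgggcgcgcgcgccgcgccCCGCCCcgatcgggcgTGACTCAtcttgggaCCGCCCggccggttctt
Pnpla7: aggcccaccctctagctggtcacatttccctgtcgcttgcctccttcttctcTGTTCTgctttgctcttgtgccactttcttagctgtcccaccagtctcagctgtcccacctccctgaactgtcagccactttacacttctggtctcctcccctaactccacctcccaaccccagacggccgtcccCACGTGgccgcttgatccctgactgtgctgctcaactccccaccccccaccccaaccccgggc
Mertk: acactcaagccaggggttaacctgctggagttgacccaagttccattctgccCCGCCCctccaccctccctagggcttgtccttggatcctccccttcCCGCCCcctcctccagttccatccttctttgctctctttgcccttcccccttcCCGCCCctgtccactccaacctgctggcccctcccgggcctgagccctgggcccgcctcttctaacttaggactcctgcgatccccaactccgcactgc

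The GC box GGGCGG occurred in the windows of 5 of the 7 genes (Ezr, Htra1, Mertk, Sdc4 and Lhfp), against 32.7% of 32851 mouse promoter windows of the same length. These 5 windows were rich in G and C (63.6 to 69.6%, where the median of all windows was 52.4%). Gjb6 had 56.8% and Pnpla7 60.4%. The part of GC content in the matches was not tested. The Mertk window held the GC box 3 times, 198, 152 and 99 bases before the start, each on the opposite strand. Ezr held an AP-1 site (TGANTCA, found in 6.75% of windows) 32 bases before its start. Pnpla7 held a CACGTG E-box 63 bases before its start (6.02% of windows) and AGAACA, one arm of the glucocorticoid receptor site (here as TGTTCT, 16.1% of windows), 198 bases before it. The CCAAT box was found in the Htra1 window alone (33.8% of windows). No window of the 7 held the full glucocorticoid receptor site (AGAACA and TGTTCT separated by any 3 bases, 0.0091% of windows), the NFI site (TTGGC and GCCAA separated by any 5 bases, 0.0365%), the STAT site TTCNNNGAA (7.02%) or TATAAA (12.4%), and the Gjb6 window matched no motif searched. Shared letters are a description of these windows only. No promoter motif searched was common to the 7 genes.

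Total counts ran from 21260068 to 23715015 in the 18-month libraries and from 25071195 to 29245972 in the 7-month libraries. Levels are given as CPM, counts scaled to a common library total, with TMM factors that correct for library composition. One library stood apart from its group. In 7-month saline library 2, transcripts over 5000 nt took 28.1% of counts, against 19.9 to 20.7% in its 5 companions of that age and 31.2 to 31.9% in libraries of 18 months, and the 7-month values that move most without it are given both ways. The ages come in separate tables and also differ in Malat1, a nuclear noncoding RNA, which had 5106 to 6215 CPM at 18 months and 285 to 388 CPM at 7 months, so age and library preparation cannot be told apart.

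Connexin 30 was higher in nicotine libraries at both ages and had the largest 18-month difference of the 7 genes. Gjb6 had 87.2, 98.1 and 91.8 CPM in the 7-month nicotine libraries, against 67.3, 53.8 and 58.0 CPM in 7-month saline. At 18 months it had 48.2, 53.4 and 46.3 CPM with nicotine, against 31.1, 36.4 and 40.5 CPM with saline. All nicotine libraries lay above all saline libraries of their age, and the 7-month saline libraries lay above every library of 18 months. The nicotine over saline difference was 0.62 on the log2 scale (1.53-fold) at 7 months and 0.44 (1.36-fold) at 18 months.

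Ezrin had the smallest 7-month difference of the 7 genes. Ezr had 97.4, 105.7 and 91.3 CPM in the 7-month nicotine libraries, against 72.1, 72.7 and 76.0 CPM in 7-month saline. At 18 months the nicotine libraries had 73.1, 68.7 and 68.9 CPM, against 57.0, 62.0 and 56.7 CPM in the saline libraries. The groups did not overlap at either age. The log2 difference was 0.40 (1.32-fold) at 7 months and 0.25 (1.19-fold) at 18 months.

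The lysophospholipase Pnpla7 had the largest 7-month and the smallest 18-month difference of the 7. It had 35.2, 39.7 and 34.7 CPM in the 7-month nicotine libraries, against 22.04, 18.1 and 23.7 CPM in 7-month saline. At 18 months its level was 28.0, 32.6 and 30.3 CPM with nicotine and 26.1, 27.8 and 28.4 CPM with saline. The groups stood clear of each other at 7 months, whereas at 18 months they overlapped, with the lowest nicotine minus the highest saline library at -0.41 CPM. The log2 difference was 0.77 (1.70-fold) at 7 months and 0.13 (1.09-fold) at 18 months.

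The protease gene Htra1 gave the highest counts of the 7. Its level was 334, 383 and 367 CPM in the 7-month nicotine libraries, against 246, 187 and 246 CPM in 7-month saline. At 18 months it was 145, 154 and 147 CPM with nicotine, against 123, 133 and 135 CPM with saline. The nicotine and saline libraries did not overlap at either age, and 7-month saline library 2 was the lowest of its group. The log2 difference was 0.67 (1.59-fold) at 7 months and 0.18 (1.13-fold) at 18 months. Fgfr2 is annotated across Htra1 on the opposite strand, and the strand setting of the counting is not given in the sources used here. Fgfr2 had 481 to 1003 counts in the 7-month nicotine libraries and 1276 to 1394 in the 7-month saline libraries, below Htra1's mean of 9559 counts with nicotine and 6212 with saline.

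The engulfment receptor Mertk was the only one of the 7 whose mean was higher at 18 than at 7 months under both infusions. Mertk had 44.7, 52.6 and 44.97 CPM in the 7-month nicotine libraries, against 33.6, 36.2 and 27.4 CPM in 7-month saline. At 18 months it had 49.9, 56.2 and 51.3 CPM with nicotine, against 36.5, 42.1 and 46.6 CPM with saline. Nicotine libraries were above saline libraries throughout each age, with a gap of 3.28 CPM at 18 months. The log2 difference was 0.53 (1.45-fold) at 7 months and 0.32 (1.24-fold) at 18 months.

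Syndecan 4 was nearly constant across the 18-month nicotine libraries. Sdc4 had 111, 130.4 and 111 CPM in the 7-month nicotine libraries, against 80.9, 57.9 and 79.6 CPM in 7-month saline. At 18 months it had 85.8, 84.4 and 85.6 CPM with nicotine, against 66.0, 73.5 and 77.7 CPM with saline. The groups were separate at both ages, and 7-month saline library 2 was again the lowest. The log2 difference was 0.68 (1.60-fold) at 7 months and 0.22 (1.17-fold) at 18 months.

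Lhfp gave the fewest counts of the 7 and the narrowest clear gap. It had 25.4, 26.2 and 30.0 CPM in the 7-month nicotine libraries, against 18.8, 16.8 and 15.8 CPM in 7-month saline. At 18 months it had 15.3, 14.6 and 15.8 CPM with nicotine, against 12.0, 11.4 and 14.3 CPM with saline. The groups did not overlap, but the 18-month gap was only 0.32 CPM. The log2 difference was 0.66 (1.58-fold) at 7 months and 0.26 (1.20-fold) at 18 months. An antisense transcript, Gm42901, shares 228 nt with Lhfp at 100% identity and was not among the joined genes, so reads from that stretch are uncertain.

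**Figure D1:**
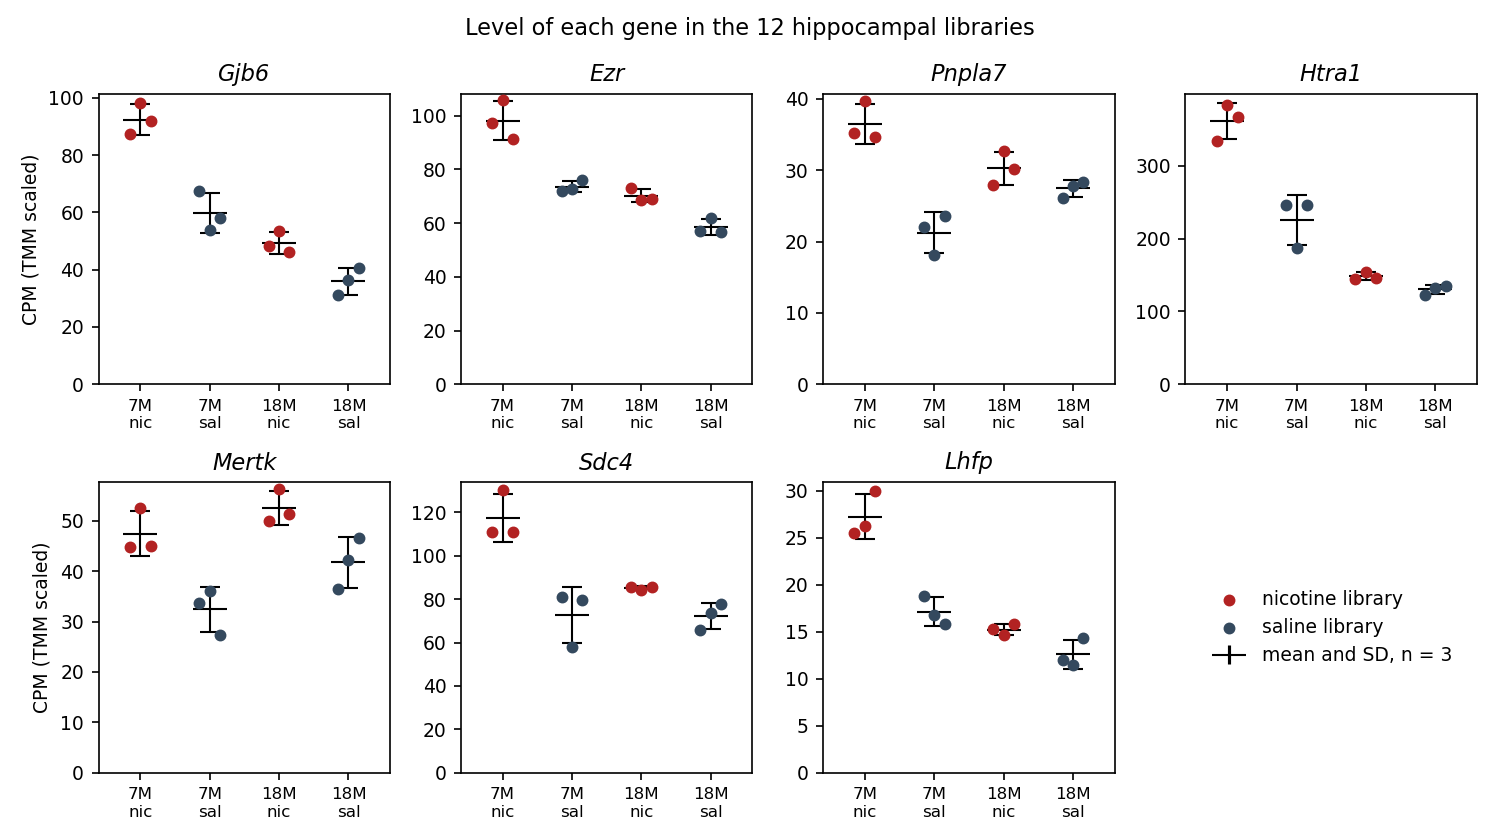
Level of each of the 7 genes in CPM (vertical axis, from 0, TMM scaled) in 7-month (7M) and 18-month (18M) libraries, nicotine (nic) left of saline (sal) at each age. Points are single libraries, and bars give the mean and SD of 3 libraries. All nicotine points lie above all saline points of the same age except for Pnpla7 at 18 months.

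Per kilobase of transcript, the order of the genes was led by Htra1 in every group. Its level per kilobase averaged 177 ± 12.2 CPM in 7-month nicotine and 111 ± 16.7 in 7-month saline (SD, n = 3 each). Sdc4 (47.8 ± 4.53 with nicotine and 29.6 ± 5.25 with saline at 7 months) and Gjb6 (43.9 ± 2.60 and 28.4 ± 3.28) came next and lay within each other's spread at that age. Ezr followed with 31.0 ± 2.28 CPM per kilobase in 7-month nicotine and 23.3 ± 0.676 in 7-month saline. Lhfp, Mertk and Pnpla7 were the lowest, at 12.9, 11.02 and 7.98 CPM per kilobase with nicotine at 7 months and 8.12, 7.53 and 4.65 with saline. At 18 months Mertk, at 12.2 ± 0.774 with nicotine and 9.71 ± 1.17 with saline, stood above Lhfp, at 7.22 ± 0.284 with nicotine and 5.97 ± 0.713 with saline. Lhfp and Pnpla7 (6.00 ± 0.258 CPM per kilobase) lay within their spread of each other in 18-month saline.

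Every nicotine library was above every saline library for 7 of the 7 genes at 7 months and for 6 of the 7 at 18 months. Over all genes tested the same was true of 8.78% of 17572 genes at 7 months, 5.61% of 18173 at 18 months and 0.439% of 16853 at both ages. Since the genes were picked for this pattern, nothing is read from the comparison of those shares. The median log2 difference of the 7 was 0.66 at 7 months and 0.25 at 18 months, where the medians of all genes tested were -0.01 and -0.00. The nicotine difference was smaller at 18 months than at 7 months for 7 of the 7 genes, by a median of -0.39 on the log2 scale, from -0.15 for Ezr and -0.18 for Gjb6 to -0.64 for Pnpla7. The small ones moved with single libraries: Ezr was at -0.09 and Mertk at -0.14 (-0.22 with all libraries) without 7-month nicotine library 2, Mertk at -0.15 without 7-month saline library 3, and Gjb6 at -0.11 without 18-month saline library 3 and at -0.27 without saline library 1 of either age. Pnpla7's own 18-month difference of 0.13 was 0.07 without 18-month nicotine library 2. The median of all genes was 0.02, and 51.8% of all genes were above 0. These differences between ages are values with no test, because the choice used both ages. Libraries of a group also varied more at 7 months (edgeR's common coefficient of variation 20.4%, against 9.79% at 18 months). The part of that spread was not tested. The nicotine values are next given as percentiles of all genes tested. High percentiles are largely fixed by the choice of the genes and are a description only. The 7-month and 18-month values of Gjb6 were at 97.8 and 97.4. Mertk had 96.9 and 95.2, Ezr 94.3 and 93.2, Lhfp 98.0 and 93.7, and Sdc4 98.2 and 92.1. Htra1 had 98.1 and 89.5, and Pnpla7 98.5 and 85.0.

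Leaving out 7-month saline library 2 gave log2 differences at 7 months of 0.56 for Gjb6, 0.41 for Ezr, 0.68 for Pnpla7, 0.56 for Htra1, 0.64 for Mertk, 0.55 for Sdc4 and 0.66 for Lhfp. Sdc4, Htra1 and Pnpla7 moved down most without it and Mertk moved up. The submitters' library codes set the 7-month libraries numbered 1 apart from those numbered 2 and 3 by their leading characters. Within number 1 (1 nicotine and 1 saline library) the log2 ratios of the 7 genes ran from 0.37 to 0.67, and within numbers 2 and 3 (2 and 2 libraries) from 0.40 to 0.84. Every 7-month nicotine library lay above every 7-month saline library for these genes, which were picked for such values. Ratios above 0 in each part were therefore fixed in advance, and nothing is read from their sign.

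**Figure D2:**
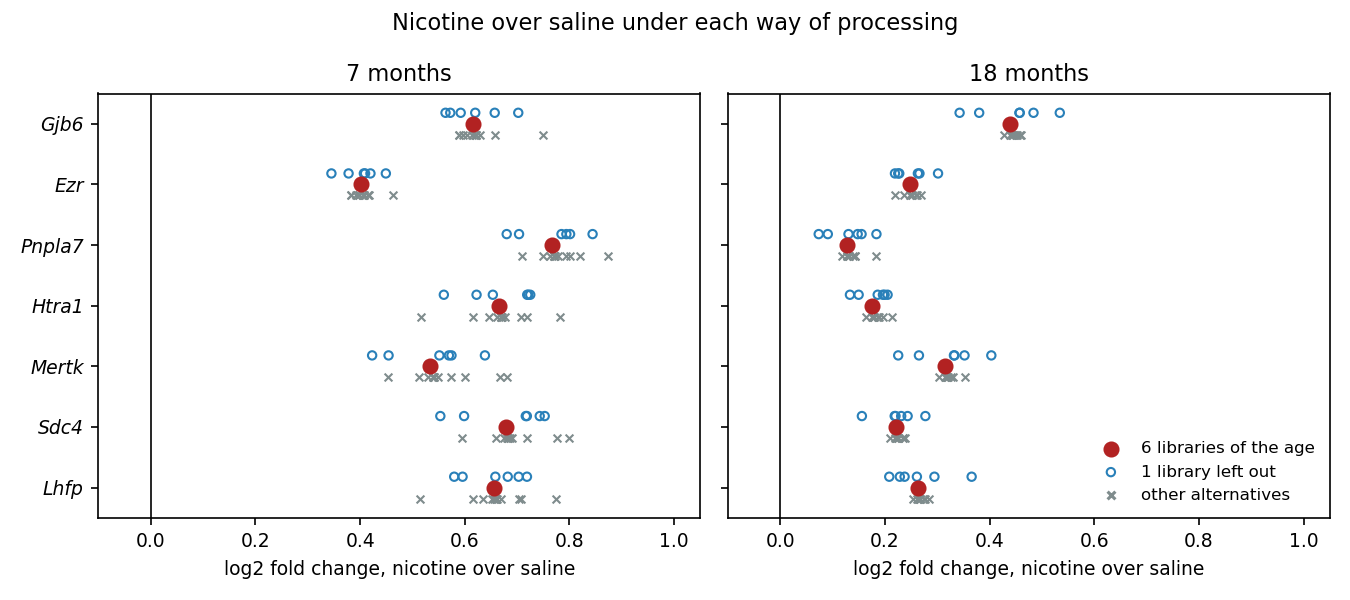
Log2 fold change of nicotine over saline (horizontal axis) for each of the 7 genes at 7 and at 18 months. Filled points use the 6 libraries of the age, open circles leave out 1 library, and crosses are the other alternatives. The genes were chosen for values above 0, so the side of 0 is fixed by that choice, and the spread of the symbols is what the plot shows, with Pnpla7 at 18 months closest to 0.

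A list of 40 other astrocyte genes gave no call for nicotine in edgeR. The list leaves out the 7 genes picked for high nicotine values. It was chosen with earlier results of these data known, so its p-values are not independent of that choice. Of the 40, 26 had a nicotine difference above 0 at 7 months (median 0.09) and 14 at 18 months (median -0.03), and 0 passed edgeR's quasi-likelihood test with Benjamini-Hochberg adjustment at either age or averaged over ages. Over all genes edgeR called 0.0114% at 7 months, 0.044% at 18 months and 0.0365% averaged over ages. Unadjusted p was under 0.05 for 7 of the 40 at 7 months, 5 at 18 months and 7 on average, where 6.49%, 6.74% and 6.86% of all genes had such a p. Without 7-month saline library 2, 20 of the 40 were above 0 at 7 months (median 0.015) and 0 passed. DESeq2, which called 0.513%, 0.314% and 0.413% of all genes in these comparisons, called 1 of the 40 higher at 7 months, 1 higher and 1 lower at 18 months, and 1 higher on average. All nicotine libraries were above all saline libraries for 7 of the 40 (17.5%) at 7 months and for 3 (7.5%) at 18 months, and for none at both ages. Of all genes tested 8.78%, 5.61% and 0.439% lay so. All nicotine libraries were below all saline libraries for 5 of the 40 at 7 months and 3 at 18 months, where 8.65% and 6.13% of all genes did so. The glutamate transporter gene Slc1a2 had log2 differences of -0.36 at 7 months and 0.07 at 18 months, and the water channel gene Aqp4 of -0.60 and -0.21. Both 7-month values were smaller in size without 7-month saline library 2, at -0.07 for Slc1a2 and -0.27 for Aqp4. The Aqp4 difference was thus below 0 at both ages, with or without that library. It did not pass edgeR's quasi-likelihood test at 7 months (adjusted p = 0.656) or 18 months (adjusted p = 0.716), and its 18-month groups overlapped. Gja1, which encodes connexin 43, the main partner of connexin 30 in astrocyte gap junctions, had -0.12 (-0.01 without that library) and -0.02, where Gjb6 had 0.62 and 0.44. Gfap, an intermediate filament gene that marks reactive astrocytes, had 0.00 (-0.19 without that library) and -0.14, and Aldh1l1, a folate enzyme gene used as a general astrocyte marker, had 0.24 (0.17 without it) and -0.04.

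A few astrocyte genes had larger differences than the 7 at one age without passing the test. Agt, the angiotensinogen gene, had 24.95, 38.4 and 39.7 CPM in 7-month nicotine, against 16.6, 10.02 and 12.9 CPM in 7-month saline, a log2 difference of 1.37 (adjusted p = 0.601, edgeR quasi-likelihood test). At 18 months Dio2, which encodes the enzyme that activates thyroid hormone, had 94.1, 106 and 101 CPM with nicotine against 50.1, 59.3 and 75.5 CPM with saline, a difference of 0.69 (adjusted p = 0.234). Sox9, a transcription factor gene of astrocytes, had 29.2, 28.4 and 28.7 CPM with nicotine against 42.9, 39.5 and 36.3 CPM with saline at 18 months, a difference of -0.47 (adjusted p = 0.0767). Each of the 3 had separate groups at the age given. Without 18-month saline library 3, Dio2 (0.86, adjusted p = 0.022) and Sox9 (-0.53, adjusted p = 0.0395) passed. Among 31 genes of reactive astrocytes, 17 were above 0 at 7 months and 14 at 18 months, with 0 passing edgeR's test (3 and 7 at an unadjusted p under 0.05), while DESeq2 called 2 higher at 7 months and 0 at 18 months. Without 7-month saline library 2, 15 of 32 reactive genes were above 0 at 7 months, and 7 had an unadjusted p under 0.05.

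**Figure D3:**
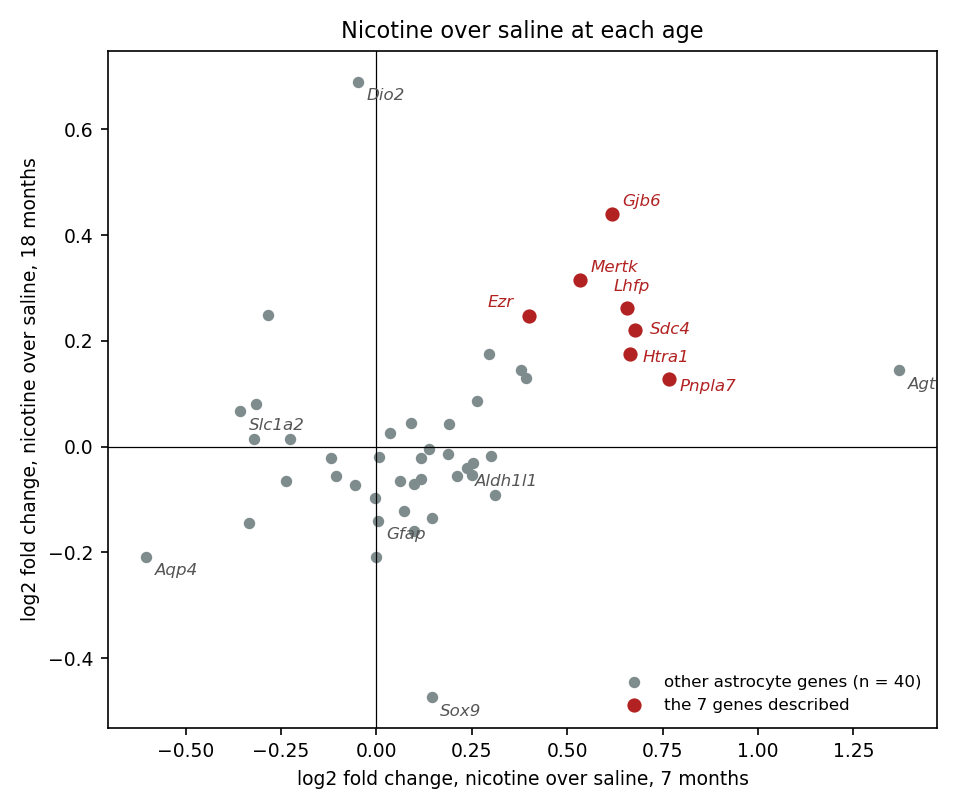
Log2 fold change of nicotine over saline at 7 months (horizontal axis) against 18 months (vertical axis) for the 7 genes and for 40 other astrocyte genes. The 7 genes, which were picked for this, lie in the upper right quadrant, and the other astrocyte genes scatter around 0 at both ages, with Agt far to the right and Sox9 lowest.

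Lists of genes that work with the 7 gave no edgeR call for nicotine. They too leave out the 7 and were chosen with earlier results of these data known. Of 14 other gap junction genes measured at 7 months, 5 were above 0 (3 without 7-month saline library 2), as were 4 of 13 at 18 months, and the smallest 7-month p-value belonged to the scaffold gene Tjp1 (log2 difference -0.72, and -0.30 without that library). Of 13 genes for ezrin's relatives and regulators, 3 were above 0 at 7 months and 6 at 18 months, with a 7-month median of -0.22 (-0.11 without that library). Of 19 phagocytosis genes, 8 (11 without that library) and 7 were above 0 at the 2 ages, among them Gas6, which encodes a Mertk ligand, at 0.32 at 7 months and -0.02 at 18 months. Of 17 genes around Htra1 and TGF-beta signalling, 7 were above 0 at each age, as were 8 and 10 of 23 genes for heparan sulfate proteoglycans and their synthesis. Of the 5 other Lhfp-like genes, 3 and 2 were above 0. In each of these lists 0 genes passed edgeR's test at either age and DESeq2 called 0. Unadjusted p was under 0.05 for 1 or 2 genes per list at 7 months, where 6.49% of all genes had such a p. At 18 months, where 6.74% had one, they were 4 of 13 (ezrin), 4 of 17 (Htra1), 3 of 13 (gap junction) and 2 of 23 (heparan sulfate). The phagocytosis list had 1 of 19 and the Lhfp-like list 1 of 5. At 7 months each list had 0 genes wholly above saline, where 8.78% of all genes lay so. Wholly below saline were 1 to 4 per list, with 4 of 13 for ezrin, where 8.65% of all genes lay so.

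The lysophospholipid enzymes held 1 gene with separate groups at both ages, Pnpla2, which was named after its values were seen. Of 19 of them 7 were above 0 at 7 months (11 without 7-month saline library 2) and 8 at 18 months, and 0 passed edgeR's test, with 1 at an unadjusted p under 0.05 at each age. Pnpla2, which encodes the triglyceride lipase ATGL and belongs to the same patatin-like family as Pnpla7, had 37.6, 51.1 and 42.1 CPM in 7-month nicotine, against 25.3, 16.04 and 26.5 CPM in 7-month saline. At 18 months it had 19.2, 18.4 and 19.3 CPM with nicotine against 15.8, 17.9 and 15.7 CPM with saline. Its groups did not overlap at either age, with log2 differences of 0.94 (adjusted p = 0.633) and 0.19 (adjusted p = 0.737). Of all genes tested 0.439% had every nicotine library above every saline library at both ages. At each single age 2 of the 19 (10.5%) did so, against 8.78% of all genes at 7 months and 5.61% at 18 months. Wholly below saline were 0 of the 19 at 7 months and 1 at 18 months. DESeq2 called 1 gene of the list higher at 7 months and 0 at 18 months.

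Markers of other cell types moved with some libraries. Choroid plexus genes summed to 61.7 to 6375 CPM in 7-month nicotine and 137 to 1661 CPM in 7-month saline, and to 29.1 to 1545 CPM in 18-month nicotine and 23.3 to 97.2 CPM in 18-month saline, and 14 of 14 measured at 7 months and 9 of 9 at 18 months were above 0. Ttr, the transthyretin gene that defines this epithelium, was highest in nicotine library 1 of each age, at 5876 and 1397 CPM. Without those 2 libraries, the 7-month log2 differences were 0.66 for Gjb6, 0.41 for Ezr, 0.79 for Pnpla7, 0.72 for Htra1, 0.57 for Mertk, 0.72 for Sdc4 and 0.70 for Lhfp. At 18 months they were 0.46, 0.22, 0.18, 0.20, 0.35, 0.22 and 0.26 in the same order of genes. The omitted 18-month library held the only nicotine value of Pnpla7 (28.0 CPM) below its highest saline value (28.4 CPM). The genes were picked for higher nicotine levels, so nothing is read from the sign of these values. Oligodendrocyte genes were above 0 for 0 of 12 at both ages, with summed levels of 4359 to 6125 CPM in 7-month nicotine and 5999 to 7221 CPM in 7-month saline. Their 18-month sums overlapped widely, at 3260 to 4654 CPM with nicotine and 3216 to 5741 CPM with saline. Microglia genes, another source of Mertk, were above 0 for 6 of 12 at 7 months (3 of 12 without 7-month saline library 2) and 2 of 12 at 18 months. Endothelial genes were above 0 for 5 of 12 at each age, with medians of -0.42 and -0.04. Unadjusted p was under 0.05 for 9 and 5 of the 12, where 6.49% and 6.74% of all genes had such a p. Without 7-month saline library 2, 5 of 12 had such a p at 7 months, with a median of -0.25. Wholly below saline were 4 of the 12 at 7 months and 3 at 18 months (8.65% and 6.13% of all genes). Wholly above saline were 1 and 2 (8.78% and 5.61% of all genes). Ependymal genes were above 0 for 1 of 9 (2 without that library) and 0 of 8, mural genes for 1 and 6 of 9, and meningeal fibroblast genes for 2 and 10 of 11, with meningeal medians of -0.64 at 7 months and 0.57 at 18 months. The summed astrocyte list ran from 13757 to 14449 CPM in 7-month nicotine and from 12438 to 13623 CPM in 7-month saline, but overlapped at 18 months (12538 to 13151 CPM with nicotine and 12374 to 13246 CPM with saline). The part of these other cell types in the nicotine values of the 7 was not tested.

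With age, 5 of the 7 genes were lower at 18 than at 7 months, 1 was higher and 1 did not pass the test, where 66.9% of 19171 genes passed, 34.4% lower and 32.5% higher. A call in itself therefore sets no gene apart. Htra1 fell most, with a log2 fold change of 18 over 7 months of -1.04 ± 0.07 (SE, adjusted p = 1.4e-06 in edgeR's quasi-likelihood test on 12 libraries, averaged over infusions). Gjb6 followed at -0.82 ± 0.08 (adjusted p = 6.1e-06), then Lhfp at -0.64 ± 0.08 (adjusted p = 2.7e-05) and Ezr at -0.41 ± 0.05 (adjusted p = 4.3e-05). Sdc4 was lower by a smaller step, -0.24 ± 0.09 (adjusted p = 0.0289), and Mertk was higher, 0.26 ± 0.09 (adjusted p = 0.0181). Pnpla7 was at 0.05 ± 0.08 (adjusted p = 0.580). The median of the 7 was -0.41 and that of all genes -0.03. The calls of Sdc4 and Mertk were also the weak ones, since leaving out a single library ended each: Mertk reached an adjusted p of 0.0501 without 7-month saline library 3 and 0.0592 without 18-month saline library 3, and Sdc4 lost its call without any of 6 libraries (adjusted p from 0.0508 to 0.0687).

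Age differences followed transcript length over the whole table, with a Spearman correlation across 16200 genes of 0.50, and genes are not independent replicates. Among genes of 2000 to 2500 nt, the class of Htra1 (2041 nt), Gjb6 (2105 nt), Lhfp (2108 nt) and Sdc4 (2458 nt), the median age change was -0.34 on the log2 scale over 1691 genes. It was -0.11 over 1539 genes of 3000 to 3500 nt, where Ezr lies (3164 nt), and 0.14 over 1966 genes of 4000 to 5000 nt, where Mertk (4302 nt) and Pnpla7 (4574 nt) lie. Htra1, Gjb6, Lhfp, Ezr and Pnpla7 were lower than the median of their class, and Sdc4 and Mertk were above it. With offsets for transcript length and GC content, which lower the median of all genes to -0.10, 4 genes remained lower: Gjb6 at -0.69 (edgeR adjusted p = 7.2e-06), Htra1 at -0.68 (5.6e-07), Lhfp at -0.50 (0.000189) and Ezr at -0.31 (0.00026). Mertk (0.02, adjusted p = 0.876) lost its call. Sdc4 was at -0.13 (adjusted p = 0.14), but its call was lost already in the fit on the same genes without offsets (-0.17, adjusted p = 0.0968), and Pnpla7 turned to -0.09 (adjusted p = 0.393). In that setting 36.0% of the genes called were higher at 18 months, against 49.98% in the fit on the same genes without offsets and 48.6% in the fit on all 19171.

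**Figure D4:**
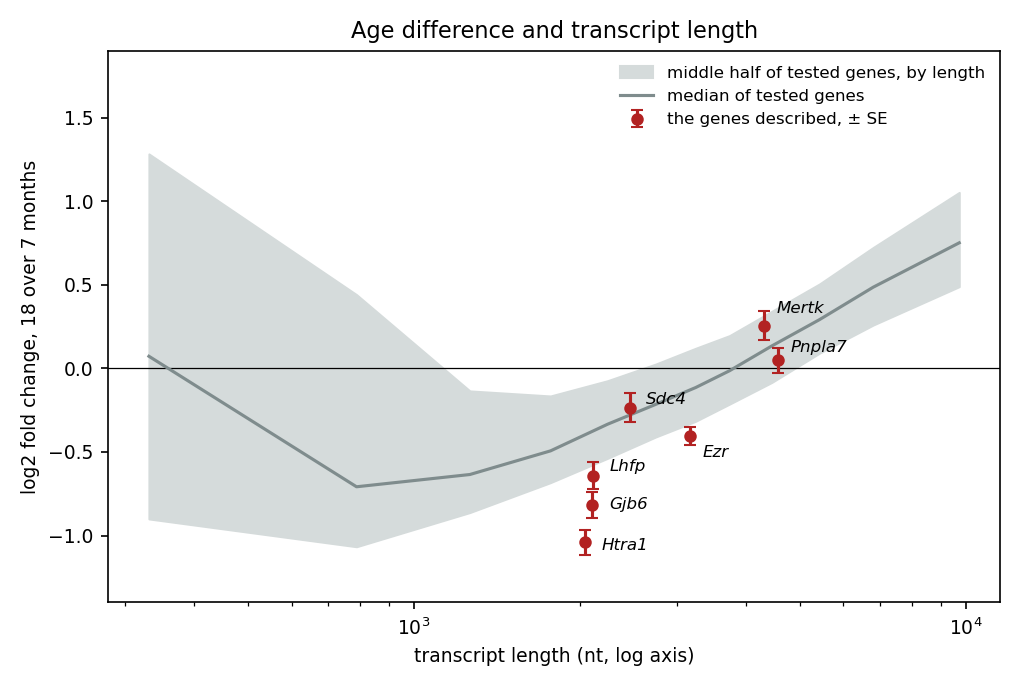
Log2 fold change of 18 over 7 months (vertical axis) against transcript length (horizontal log axis, nt). The line is the median and the band the middle 50% of tested genes in length classes, and points are the 7 genes with SE. The shorter genes Htra1, Gjb6 and Lhfp and the longer gene Ezr lie under the band, while Sdc4, Pnpla7 and Mertk lie within it.

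Set out by infusion, the age values hold the same contrast as the nicotine difference between ages given above, and are not a further result. They share libraries with the choice of genes and carry no test here. Under nicotine the log2 change of 18 over 7 months was -1.28 for Htra1, -0.91 for Gjb6, -0.84 for Lhfp, -0.48 for Ezr, -0.46 for Sdc4, -0.27 for Pnpla7 and 0.15 for Mertk. Under saline it was -0.80 for Htra1, -0.73 for Gjb6, -0.44 for Lhfp, -0.33 for Ezr, -0.01 for Sdc4, 0.37 for Pnpla7 and 0.37 for Mertk. Pnpla7 thus changed sign between the infusions.

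Other astrocyte genes went both ways with age. The age values given next carry no offset for transcript length, and the part of length in them was not tested. Of the 40, 24 were lower and 8 higher at 18 months by edgeR's test, with a median of -0.33, where 34.4% of all genes were lower and 32.5% higher. Like Gjb6, the calcium-binding protein gene S100b (-0.73, adjusted p = 1.2e-05), the astrocyte marker Aldh1l1 (-0.58, adjusted p = 2.8e-05) and the glutamine synthetase gene Glul (-0.28, adjusted p = 5e-04) were lower. Gfap (1.11, adjusted p = 2.4e-05), Aqp4 (1.02, adjusted p = 2.7e-05), Slc1a2 (0.74, adjusted p = 0.000108) and Sox9 (0.50, adjusted p = 0.00278) were higher. The partner connexin gene Gja1 was higher (0.33, adjusted p = 0.000617) where Gjb6 was lower, and Slc1a3 was at 0.04 (adjusted p = 0.674). Ezrin's relative Msn, the moesin gene, was higher (0.84, adjusted p = 1.5e-06), as were 9 of the 13 genes of its list, with 3 lower, against 32.5% and 34.4% of all genes. Among phagocytosis genes 8 of 19 were higher, led by Lrp1 (1.04, adjusted p = 6.2e-06), and 4 lower, led by Mfge8 (-0.85, adjusted p = 5.5e-06), which encodes a bridge between phosphatidylserine and integrins.

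Within groups the 7 genes varied together only in part. The departures of log2 CPM from the group mean, over 12 libraries that share depth and scaling, were correlated with Pearson r from -0.61 to 0.93 over 21 pairs, with a median of 0.31 and 17 pairs above 0, given as a description. Htra1 and Sdc4 (0.93), Htra1 and Pnpla7 (0.89) and Pnpla7 and Sdc4 (0.85) were the closest pairs, and Ezr and Lhfp (-0.61) the most opposed. Without 7-month saline library 2 the range was -0.63 to 0.94 and the median 0.50, and the closest pair was Gjb6 and Mertk at 0.94, against 0.55 with it. Ezr had r of 0.07 with Gjb6 and 0.04 with Mertk.

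**Figure D5:**
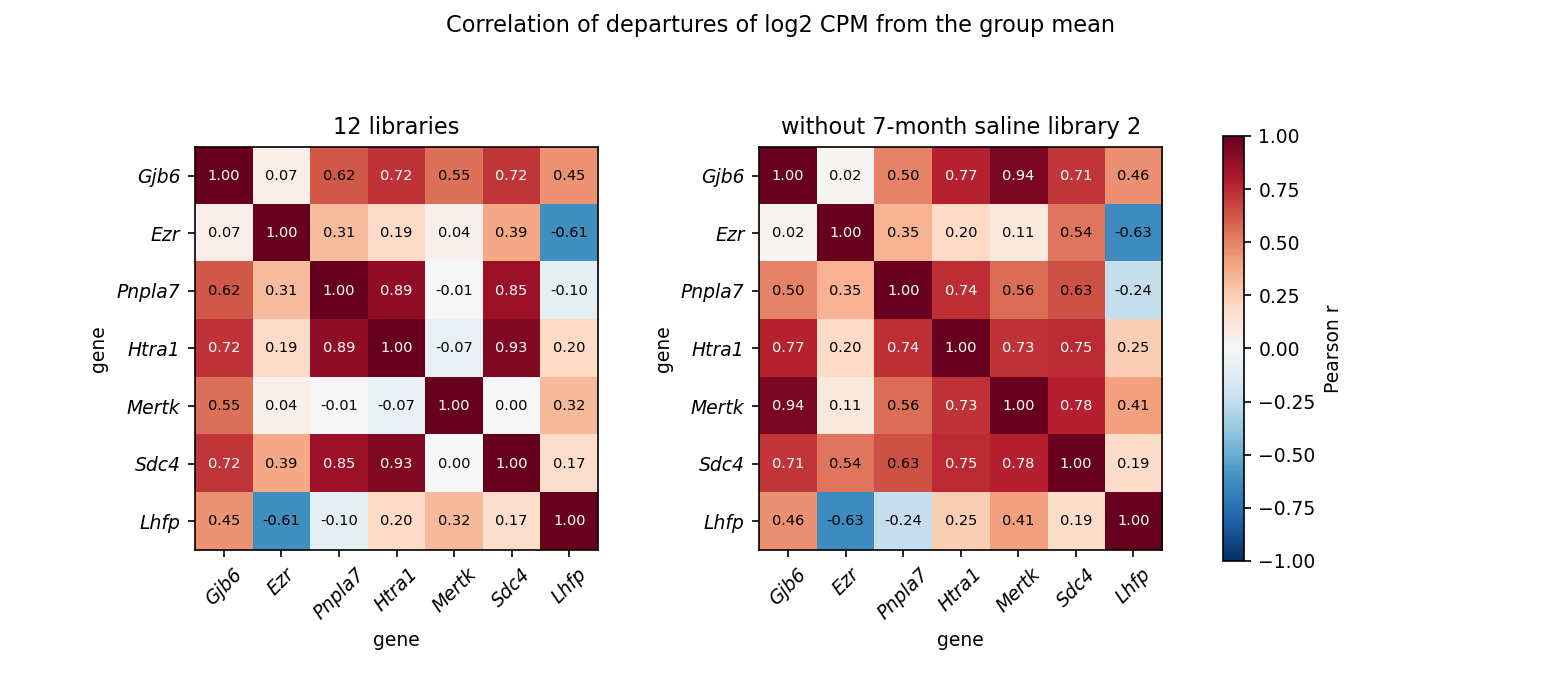
Pearson r between the 7 genes of their departures of log2 CPM from the group mean, over 12 libraries (left) and without 7-month saline library 2 (right). Htra1, Sdc4, Pnpla7 and Gjb6 form a block of positive values in both panels, while Ezr and Lhfp are opposed and Mertk has r under 0 or near it with Htra1, Pnpla7 and Sdc4 in the left panel only.

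Of 13086 genes, those whose departures were most like the mean of the 7 were Klf15 (r = 0.95), Pttg1ip (0.94), Fas (0.94), Slc2a1 (0.94) and Igsf10 (0.93) over 12 libraries. Klf15 encodes a transcription factor induced by glucocorticoids and Slc2a1 the glucose transporter of brain endothelium and astrocytes. Without 7-month saline library 2 they were Slc1a2 (0.97), Map3k6 (0.97), Pttg1ip (0.95), Stk10 (0.95) and Rpl13a (0.93), so Pttg1ip alone was in both sets. For Gjb6 the 5 closest genes were Eif4ebp1 (0.92), Sema3g (0.90), Rhoj (0.89), Lrrd1 (0.89) and Pfkfb4 (0.89), and none was among the 5 without that library, led by Clec18a (0.98). Among astrocyte genes, Aldh1l1 had r of 0.81 with the mean of the 7 (0.71 without the library), Sox9 -0.71 (-0.62) and Gja1 -0.01 (0.67), while Slc1a2 had -0.26 with it and 0.97 without.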

How the data were processed

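RNA from hippocampus was sequenced in 12 libraries. The authors deposited raw counts of fragments per gene, with 1 table for each age, and no normalization was applied to them before deposit. The submitters' processing notes name the aligner TopHat, without a version, and the genome build GRCm38. The counting tool, annotation and strand setting are not given in the sources used here. The labels' protocol describes a small RNA kit, while the counts cover mRNA.

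The tables were joined by gene name (44760 genes), and a transcript length was found for 30971 of them in GENCODE M21. Counts were fitted in R 4.3.3 by edgeR 4.0.16 (filterByExpr for low counts, TMM factors, the quasi-likelihood test, and p-values adjusted over all genes by Benjamini-Hochberg at 0.05), separately at each age for nicotine over saline and over 12 libraries for age and for the average over ages. The 7 genes passed the filter at each age. Scripts were tested on simulated data. Alternatives were DESeq2 1.42.0, other size factors, no filter, a replicate block, length and GC offsets (splines, 4 df each), other sets of libraries and each library left out. Promoter motifs were read by exact letters, and BLAST 2.17.0 was used to look for copies of at least 200 nt at 95% identity. Departures used log2(CPM + 0.5) for genes with a mean log2 CPM of at least 1.

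The 7 genes and the gene lists were chosen with earlier results of these data known. Named genes are the 7, up to 3 genes per list with the smallest p in the comparison, 9 astrocyte genes always shown, and the 5 most alike in departures. Pnpla2 and the other genes with separate groups at both ages were named after their values were seen. Replicate numbers were not used as pairs. Same-number libraries' departures correlated from -0.11 to 0.23 over 12 pairs. Summed levels of gene lists, and Malat1, used TMM factors over all genes, and the other levels those over the genes kept. Counts per gene set the precision, and depth covers counting error only.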

Additional observations from a re-analysis of the deposited data

How the results depend on the processing

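The sign of the nicotine difference is largely fixed by the choice of the 7 genes. Of its 392 alternative values, 2 moved by more than the spread between libraries: Lhfp to 0.51 at 7 months without both 7-month libraries numbered 3, and Htra1 to 0.52 with length and GC offsets. Their 7-month median ran from 0.56 (without saline library 2) to 0.72 with 1 library left out, and was 0.77 without both libraries numbered 1. The number of genes called for nicotine depended on the processing, and the cause was not tested. At 7 months, 2 genes were called, against 6 with no filter, 83 with DESeq2, 1 with a replicate block, 1 without saline library 2 and nicotine library 1, 0 without nicotine library 1, 5 without both libraries numbered 3, 0 without both numbered 1, 9 with all 12 libraries in 1 fit, and 0 to 2 with 1 library left out (0 without nicotine library 1 and without saline library 2 or 3, 1 without nicotine library 2). At 18 months, 8 were called, against 35 with no filter, 57 with DESeq2, 0 with all 12 libraries in 1 fit, and 5 to 21 with 1 left out (18 without nicotine library 2, 5 without saline library 2, 21 without saline library 3). Averaged over ages, 7 were called, against 15 with no filter, 79 with DESeq2, 43 without 7-month saline library 2 and nicotine library 1, 3 without nicotine library 1 of each age, 12 with offsets, and 2 to 21 with 1 left out (21 without 7-month saline library 2; the other omissions that moved it by over 1.5 times gave 2 to 4). For age, the median of the 7 was -0.31 with offsets and -0.43 to -0.38 with 1 library left out. The count of genes called higher with age among the 7 (1, Mertk) was 0 without nicotine library 1 of each age, without both 7-month libraries numbered 3, with offsets and within nicotine, 2 within saline, and 0 to 1 with 1 library left out. Pnpla7 reversed in age to -0.086 with offsets and -0.27 within nicotine alone. The values within 1 infusion share libraries with the choice of genes and are not read as tests. Sdc4 lost its age call with other size factors (adjusted p = 0.0614) and with DESeq2 (0.0548). With the replicate block 12517 genes were called for age, against 12833, and no call of the 7 changed (Sdc4 adjusted p = 0.045, Mertk 0.0156). Departures of same-number libraries correlated from -0.11 to 0.23, over 0.1 in 1 of 12 pairs (nicotine library 1 of the 2 ages). Leaving out 1 library left 12161 to 14185 genes called for age. Depth limits Lhfp most, with a mean of 336 counts in 18-month nicotine and 279 in 18-month saline.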

Other observations

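Glucocorticoid-responsive genes, a list that holds Klf15 (among the 5 genes most like the mean of the 7 over 12 libraries but not without 7-month saline library 2), also had nicotine medians above 0. The list was chosen with earlier results of these data known, so its shares and p-values are not independent of that choice. Of 22, 14 were above 0 at 7 months and 19 at 18 months, with medians of 0.37 and 0.32 (at 7 months 12 and 0.20 without 7-month saline library 2). All nicotine libraries lay above all saline libraries for 9 (40.9%) at 7 months, 13 (59.1%) at 18 months and 7 at both ages (Fkbp5, Plin4, Hif3a, Mt1, Mt2, Cdkn1a and Klf15), where 8.78%, 5.61% and 0.439% of genes tested did so. At 7 months 4 of the 22 lay wholly below saline. Plin4, which encodes a lipid droplet coat protein, had 47.7, 67.9 and 45.2 CPM in 7-month nicotine against 7.09, 6.72 and 6.32 CPM in 7-month saline, a log2 difference of 2.98 (adjusted p = 0.00641, edgeR quasi-likelihood test). It did not pass at 7 months when nicotine library 1 (adjusted p = 0.0568), saline library 2 (0.0667) or saline library 3 (0.0569) was left out. Averaged over ages, Plin4 (2.18, adjusted p = 0.000155) and the hypoxia factor gene Hif3a (1.55, adjusted p = 0.0314) passed. Plin4 passed without each library in turn, whereas Hif3a did not pass without 7-month nicotine library 2 or 3, 7-month saline library 1, any 18-month nicotine library, or 18-month saline library 1 or 2 (adjusted p from 0.0613 to 0.155). Over both ages DESeq2 called 8 of the 22 higher and 2 lower. The list's summed level was 1637 to 2261 CPM in 7-month nicotine against 1221 to 1586 CPM in 7-month saline, and 1573 to 1687 CPM in 18-month nicotine against 1323 to 1404 CPM in 18-month saline. Among reactive astrocyte genes, Emp1, a tetraspan membrane protein gene, was the one whose groups did not overlap at either age, with 4.08, 3.93 and 3.53 CPM in 7-month nicotine against 3.42, 2.52 and 2.02 CPM in 7-month saline, and 3.35, 2.84 and 2.51 CPM in 18-month nicotine against 1.25, 1.62 and 2.13 CPM in 18-month saline (adjusted p = 0.656 and 0.564).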
